A study of Mus musculus with 2 samples.

Results

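The myeloid cells described here are 61 of 9139 single cells read in 2 lung libraries that had been sorted for γδ T cells. The cells were chosen by their own transcripts, and one was taken as myeloid when it held at least 2 transcripts in each of at least 3 of 5 genes, Lyz2, Cst3, Csf1r, C1qa and C1qb. Of these cells, 33 came from the 2505 cells of the WT library and 28 from the 6634 cells of the KO-labelled library. Transcripts are given as unique molecular identifiers (UMIs), each of which marks 1 captured molecule.

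The study compared lung Vγ1 T cells that develop without Vγ4 and Vγ6 T cells with the non-Vγ1 γδ T cells of normal mice. The WT library held lung γδ T cells without the Vγ1 chain from C57BL/6NCrl mice. The KO-labelled library held Vγ1+ T cells from B6.Cg-Tcrgtm1lku (B6.Vg4-/-Vg6-/-) mice. All mice were uninfected and 5 to 7 weeks old, mice of both sexes were used in the study, and the number of mice behind each library is not given in the sources used here. Lungs were digested with collagenase D and DNase I, lymphocytes were taken from a density gradient, and the T cells were then sorted by flow cytometry, so the myeloid cells are cells that passed a gate meant for T cells. Sort, genotype, strain and library differed together and cannot be told apart. No group was replicated, since each was a single library, so no test was possible, and the intervals given cover counting error only.

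The Tcrg genes were read first as a check of the labels. Among the other cells of the KO-labelled library Tcrg-V6 had 0 UMIs, Tcrg-V1 had 5432 UMIs and Tcrg-V4 had 1290 UMIs. Among those of the WT library the same genes had 2906, 248 and 708 UMIs. In counts per 1000000 UMIs (CPM) Tcrg-V4 stood at 50.1 in the KO-labelled and 80.8 in the WT other cells. Tcrg-V4 thus went against the label, and the directions given here take the label as it stands. The libraries shared 23 cell barcodes, and 0 of the myeloid cells were among them.

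Monocytes are blood cells made in the bone marrow. Classical monocytes carry Ly6c and Ccr2 and enter tissues, whereas non-classical monocytes patrol the vessel wall and depend on the factor Nr4a1. Lung macrophages are of several kinds. Alveolar macrophages lie in the air spaces, and interstitial macrophages lie in the tissue around vessels, bronchi and nerves. C1q, the molecule that starts the classical complement pathway, is built from the products of C1qa, C1qb and C1qc and is a usual mark of tissue macrophages.

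C1qa, C1qb and C1qc lie side by side on chromosome 4. The promoters of C1qb and C1qc are shown because these genes separated the myeloid cells within both libraries. Each window runs from 250 bases before to 50 bases after the annotated start and is taken from RefSeq (GRCm38.p6, minus strand, chr4:136886151-136886450 for C1qb and chr4:136892865-136893164 for C1qc). Capitals mark GAGGAA or its reverse complement TTCCTC, the core letters of sites bound by Spi1 (PU.1), the main factor of the myeloid lineage.
C1qb: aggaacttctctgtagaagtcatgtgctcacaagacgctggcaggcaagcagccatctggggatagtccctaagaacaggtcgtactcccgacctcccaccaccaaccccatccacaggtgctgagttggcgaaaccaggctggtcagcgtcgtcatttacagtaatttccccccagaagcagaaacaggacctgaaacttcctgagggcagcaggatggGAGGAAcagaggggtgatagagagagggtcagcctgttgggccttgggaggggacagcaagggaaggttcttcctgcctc
C1qc: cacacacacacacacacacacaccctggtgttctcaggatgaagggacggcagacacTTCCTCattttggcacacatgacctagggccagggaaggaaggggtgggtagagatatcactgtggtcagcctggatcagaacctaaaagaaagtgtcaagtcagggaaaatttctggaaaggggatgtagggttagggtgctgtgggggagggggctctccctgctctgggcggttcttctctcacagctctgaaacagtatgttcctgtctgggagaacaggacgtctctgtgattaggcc
Each window held 1 match, at position -30 in C1qb and -193 in C1qc counted from the start site. The Cst3 window also held 1 match and the Lyz2 window 0. Over both strands 28.3% of 32851 promoters of this length held the motif, and 37.8% of the 217 matched promoters of genes at least 4-fold higher in the myeloid cells of both libraries did. A match is a description of letters and not a bound site.

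The myeloid cells made up 1.32% of WT cells (95% exact interval 0.909 to 1.85) and 0.422% of KO-labelled cells (0.281 to 0.609). They held 2.36% of the WT and 0.640% of the KO-labelled UMIs of the kept cells. They were deeper than the other cells of their library. Their median was 6187 UMIs and 2247 genes in WT, against 3269 UMIs and 1496 genes in the other cells. In KO-labelled cells the medians were 6265.5 UMIs and 2150 genes, against 3520.5 and 1582. The range was wide, from 1648 to 12683 UMIs in WT and from 517 to 14106 in KO-labelled cells, and 5 KO-labelled cells were under 1000 UMIs. The median mitochondrial share was 1.03% and 1.11%, below the 1.53% and 1.5% of the other cells.

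The 5 selecting genes are given as a description, since they chose the cells. Lyz2, which encodes the lysozyme of macrophages, ranged from 0 to 354 UMIs per cell in WT with a median of 46, and from 1 to 278 in KO-labelled cells with a median of 24.5. Cst3, which encodes the protease inhibitor cystatin C, had medians of 14 and 8.5 UMIs. Csf1r, the receptor for the growth factor that keeps monocytes and macrophages alive, had medians of 3 and 2 UMIs and was read in 31 of 33 and 20 of 28 cells. Nearly every cell thus carried Lyz2 and Cst3, in both libraries. The C1q chains divided them. C1qa was read in 6 WT and 15 KO-labelled cells and C1qb in 9 and 17, and the medians of C1qb were 0 and 2.5 UMIs.

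**Figure D1:**
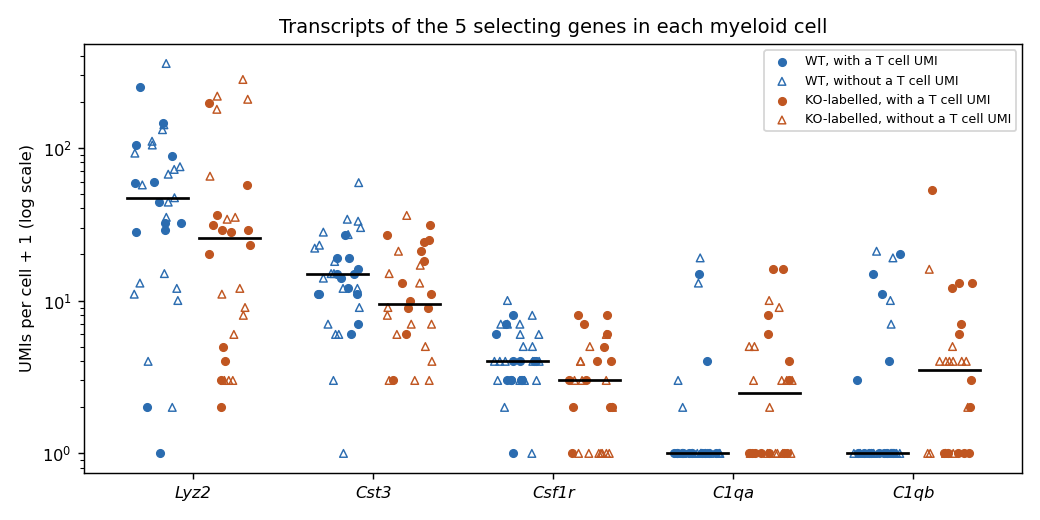
UMIs per cell, plus 1, on a log axis for the 5 genes that chose the myeloid cells; each point is 1 cell of the WT (33, blue) or KO-labelled (28, orange) library, filled circles carry a Cd3e, Cd3d, Cd3g or Trdc UMI, open triangles do not, and black lines are medians. Lyz2 and Cst3 were spread over most cells of both libraries, while the C1qb medians were 0 in WT and 2.5 in KO-labelled cells.

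The other cells carried these genes at low levels. Lyz2 was at 10551 CPM over the WT myeloid cells and at 145.2 CPM over the other WT cells, and at 9076 and 5.67 CPM in the KO-labelled library. C1qa had 1 UMI in the 2472 other WT cells and 2 UMIs in the 6606 other KO-labelled cells. After each cell was thinned to 2000 UMIs, 1.39% of the other WT and 0.432% of the other KO-labelled cells held a Lyz2 UMI. Cst3 was less restricted, and 41.0% and 38.3% of the other cells held a UMI of it without thinning.

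The limit of the selection lay within a run of similar cells in WT. There 19 cells had exactly 2 of the 5 genes at 2 UMIs or more, with a median of 15 Lyz2 UMIs, and 26 had exactly 3, with a median of 57. The 19 cells just outside held 94.2% of the Lyz2 UMIs of the other WT cells. On the KO-labelled side 6 cells lay just outside and 17 just inside. By the gene lists described below, 9 of the 19 WT cells were non-classical monocyte-like and 6 classical monocyte-like. The level in the other WT cells, and each WT ratio to it, therefore includes myeloid transcripts of these cells.

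T cell transcripts were read in many of the myeloid cells. At least 1 UMI of Cd3e, Cd3d, Cd3g (chains of the CD3 signalling complex) or Trdc (the constant part of the δ chain) was found in 13 of 33 WT cells, or 39.4% (22.9 to 57.9). It was found in 13 of 28 KO-labelled cells, or 46.4% (27.5 to 66.1). The shares in the other cells were 91.6% and 96.7%. At 2000 UMIs per cell the shares were 28.1% of 32 WT and 60% of 20 KO-labelled myeloid cells, against 96.9% and 98.8% of the other cells. Thinning left out 1 WT and 8 KO-labelled myeloid cells.

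The T cell transcripts were concentrated in a subset of cells. The carriers held 3 to 24 such UMIs in WT, with a median of 10, and 4 to 42 in KO-labelled cells, with a median of 17. No carrier had only 1 or 2. The median among the other cells with any was 9 and 10 UMIs, so the carriers' medians were at or above those of the other cells in raw UMIs. Those other cells were shallower, at medians of 3388.5 and 3572 total UMIs. As a share of all UMIs the carriers held less, 168 of 120055 in WT and 241 of 119307 among KO-labelled cells. All other cells held 24281 of 8759713 and 74104 of 25742367. Carriers were also the deep cells. Their median depth was 8961 UMIs in WT and 8543 among KO-labelled cells, against 4398.5 and 1989 UMIs in the myeloid cells without T cell transcripts. Their median Lyz2 was 43 UMIs in WT, against 51 in the cells without, and 27 in KO-labelled cells, against 11.

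**Figure D2:**
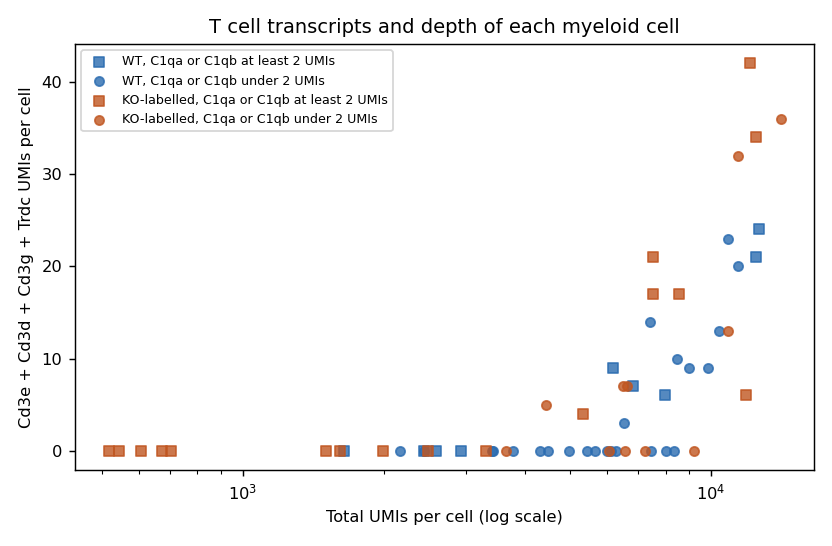
Summed Cd3e, Cd3d, Cd3g and Trdc UMIs of each myeloid cell against its total UMIs (log axis); squares have at least 2 UMIs of C1qa or C1qb, circles do not, blue is WT and orange KO-labelled. Cells lie either at 0 or at 3 UMIs and above, and the cells above 0 have medians of 8961 (WT) and 8543 (KO-labelled) total UMIs.

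Other T cell genes followed the same split. Trbc2, a constant segment of the β chain that lung γδ T cells also transcribe, had 83 UMIs in the WT carriers and 82 in the KO-labelled carriers. It had 0 UMIs in the myeloid cells without CD3 or Trdc transcripts, where 0 of 91868 WT UMIs allows up to 32.7 CPM and 0 of 46632 KO-labelled UMIs up to 64.3 CPM. Over the whole list of 12 T cell genes, 366 of 367 UMIs in WT and 472 of 474 in KO-labelled myeloid cells lay in the carriers. The list reached 1732 CPM in WT and 2856 CPM in KO-labelled myeloid cells, and 5339 and 5826 CPM in the other cells.

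Several genes that many other WT cells carried were at or near 0 in the WT carriers. Genes of T cell states, chosen after values had been seen, were compared per 100 UMIs of the 4 T cell genes. Trdv4, the δ variable gene that pairs with Vγ6, stood at 0.595 in the WT carriers and at 36.0 in the other WT cells, a log2 ratio of -5.92 (-11.22 to -3.44). Cd163l1, which encodes the scavenger receptor SCART1, had 0 UMIs in the WT carriers and stood at 21.2 per 100 in the other cells, which puts the log2 ratio at -3.57 or lower when 0 is set to the floor of 3 UMIs. Il23r, Il17a, Tcrg-V6 and Blk also had 0 UMIs in the WT carriers. By cells, Trdv4 was read in 1 of the 13 WT carriers and in 34.5% of the other WT cells. Cd163l1 was read in 0 of 13 and 41.0%, and Il17a in 0 of 13 and 19.4%. Only 13 cells stand behind these values, and the intervals do not cover the spread between cells. Lef1, a factor of naive T cells, and Ccr7, a chemokine receptor for homing to lymph nodes, were higher per T cell UMI, at log2 ratios of 1.42 (0.95 to 1.85) and 1.26 (0.76 to 1.71). Ccl5, a chemokine of memory T cells, was higher as well, at 0.67 (0.47 to 0.85). Gzma, which the study ties to cytotoxicity, was lower at -3.17 (-6.22 to -1.32), from 2 UMIs in the carriers. The higher genes thus were not of 1 T cell state. Lef1 and Ccr7 had 0 UMIs in the WT myeloid cells without T cell transcripts, and Ccl5 had 2.

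In the KO-labelled carriers several of these genes stood near the level of the other cells and others did not. Tcrg-V1 was at 7.05 UMIs per 100 in the carriers and at 7.33 in the other cells, a log2 ratio of -0.06 (-0.84 to 0.62). Lef1 was at -0.43 (-0.95 to 0.05), Ccr7 at -0.14 (-0.63 to 0.32) and Cd163l1 at -0.16 (-1.38 to 0.82). In summed UMIs Ccl5 was lower at -0.55 (-0.83 to -0.29), 5830411N06Rik at -1.5 (-2.82 to -0.46) and Il23r at -2.60 (-7.90 to -0.12). By cells, Ccl5 was read in 6 of the 13 KO-labelled carriers and in 39.4% of the other cells. For 5830411N06Rik this was 5 of 13 and 32.2%, so the lower sums did not come with clearly fewer cells. Il23r rested on 1 UMI in 1 carrier. The intervals do not cover the spread between cells. Maf was higher at 1.19 (0.19 to 2.04), but it is not read from T cells alone. It had 8 UMIs (172 CPM) in the KO-labelled myeloid cells without T cell transcripts, against 92.2 CPM in the carriers. The interstitial macrophage-like cells described below held 17 Maf UMIs. Whether a carrier was 1 cell or 2 cells in 1 droplet was not tested. Scrublet, which scores doublets, marked 191 of the WT cells, 5 of them myeloid and all 5 carriers, and marked 0 of the 6634 KO-labelled cells, so that its calls were not used there. Of the 20 WT myeloid cells without T cell transcripts 55% were non-classical monocyte-like and 20% interstitial macrophage-like by the lists described below, and of the 15 such KO-labelled cells 6.67% and 60% were. In the cells without T cell transcripts Apoe stood at 2101 CPM in WT and 3774 CPM in KO-labelled cells, C1qc at 381 and 665 CPM and Spi1 at 816 and 472 CPM.

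Transcripts of other lung cells were sparse. Fibroblast, platelet, erythroid and mast cell or basophil lists gave at most 2 UMIs each in the myeloid cells of either library. The epithelial list stood at 409 CPM in the other WT cells, mostly from Scgb1a1, the secretoglobin of club cells, and at 14.2 CPM in the WT myeloid cells. The defining endothelial genes Cdh5, Cldn5 and Kdr were at 0. The neutrophil list had 35 UMIs in WT and 25 in KO-labelled myeloid cells (165 and 151 CPM, against 10.6 and 1.52 CPM in the other cells), of which 24 and 16 were of Clec4d, a lectin that monocytes also carry, and S100a9, Cxcr2 and Mmp9 were at 0 in both. Lists of B cell genes had 8 UMIs in WT and 33 in KO-labelled myeloid cells, and 17 of the 33 lay in 1 cell of 2485 UMIs that carried Cd79a, Cd79b, Ms4a1 and Fcmr beside C1qa and C1qb. A gene at 0 over the myeloid cells may have stood at up to 14.2 CPM in WT and 18.1 CPM in KO-labelled cells.

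The kinds of myeloid cells were then compared by 10 lists of 8 genes, none of which chose the cells. A cell took a list when at least 3 of its genes had a UMI and no other list had as many. These names describe a range of gene counts and were not checked against surface protein. In WT, 18 of 33 cells (54.5%, 36.4 to 71.9) were non-classical monocyte-like, 6 were classical monocyte-like (18.2%, 6.98 to 35.5) and 6 were interstitial macrophage-like. In the KO-labelled library 14 of 28 cells (50%, 30.6 to 69.4) were interstitial macrophage-like, 5 were non-classical monocyte-like (17.9%, 6.06 to 36.9) and 3 were classical monocyte-like. The leading kind thus differed between the libraries under this rule, and the intervals of the non-classical shares overlapped only narrowly. When 4 selecting genes were required, interstitial cells led in both libraries, with 57.1% of 7 WT and 90.9% of 11 KO-labelled cells. Reaching 4 genes requires at least 2 UMIs of C1qa or C1qb. All interstitial macrophage-like cells held these, against 1 of 18 WT and 0 of 5 KO-labelled non-classical cells. This setting therefore favours the interstitial list and cannot decide whether the leading kind differed. With 2 UMIs per list gene 53.6% of the KO-labelled cells had no leading list.

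**Figure D3:**
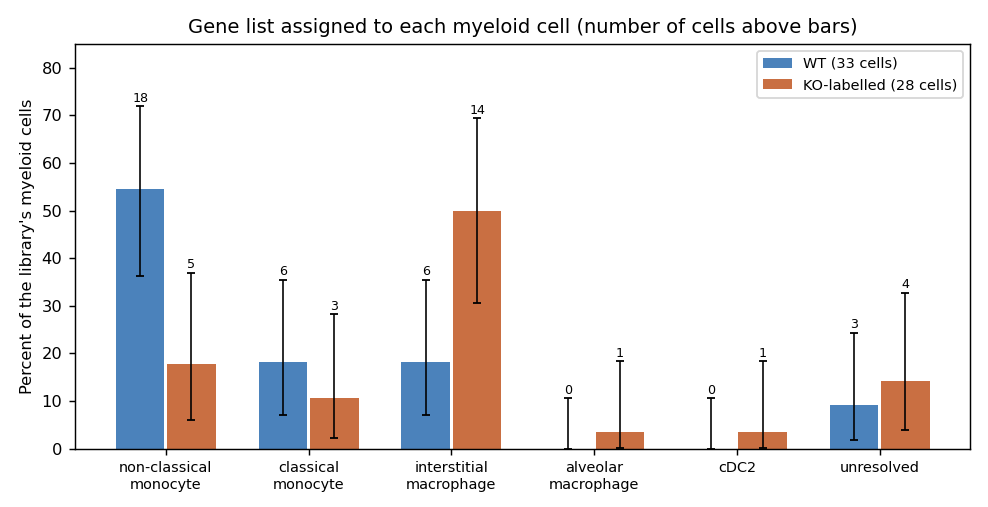
Percent of each library's myeloid cells that took each gene list, with exact 95% intervals for counting error and the number of cells above each bar (WT, 33 cells; KO-labelled, 28 cells). Non-classical monocyte-like cells led in WT with 18 and interstitial macrophage-like cells in the KO-labelled library with 14.

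The remaining cells were few. In the KO-labelled library 1 cell was alveolar macrophage-like and 1 was like type 2 dendritic cells (cDC2). There were 3 WT and 4 KO-labelled cells without a leading list. No cell took the lists of cDC1, migratory or plasmacytoid dendritic cells, neutrophils, or mast cells and basophils, and with the floor of 3 cells, 0 of 33 and 0 of 28 cells allow shares of up to 9.09% and 10.7% (exact upper limits 10.6% and 12.3%). Cells near the limit of their list, with exactly 3 genes or a lead of 1 gene, numbered 7 in WT and 4 among KO-labelled cells. T cell transcripts were carried by 7 of the 18 WT and 4 of the 5 KO-labelled non-classical cells, and by 2 of 6 and 5 of 14 interstitial macrophage-like cells.

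Depth differed between the kinds. Interstitial macrophage-like cells had medians of 2752.5 UMIs in WT and 1800.5 among KO-labelled cells, against 6196.5 and 6606 UMIs in the non-classical cells. All 5 KO-labelled cells under 1000 UMIs (517 to 701) took the interstitial list, held C1q transcripts and had no T cell UMI. Without them the KO-labelled library held 23 myeloid cells. The part of depth in the shares was not tested.

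The levels of the list genes by kind follow as a description, since these genes assigned the cells to the kinds. Over the 18 WT non-classical monocyte-like cells Treml4, a receptor of the TREM family, was at 337 CPM, Ace, the angiotensin-converting enzyme, at 302 CPM, and Adgre4, an adhesion receptor, at 345 CPM. Each had 0 UMIs in the WT interstitial macrophage-like cells, where 0 of 24379 UMIs allows up to 123 CPM. Over the 5 KO-labelled cells the same genes were at 162, 81.1 and 162 CPM. Cd300e, an activating receptor of monocytes, was at 190 CPM in WT and 162 CPM in KO-labelled non-classical cells and had 0 UMIs in the classical and interstitial cells of both libraries. Spn and Nr4a1 belong to the same list, but the other cells also carried them, at 71.5 and 225.6 CPM in WT. Nr4a1 was not highest in this kind, at 458 CPM against 656 CPM in the WT interstitial cells and at 297 CPM against 449 CPM in the KO-labelled classical cells. Spn was at 54.0 CPM in the KO-labelled non-classical and 225 CPM in the classical cells. Without list genes that the other cells carry at over 50 CPM, 13 WT and 5 KO-labelled cells were non-classical, an alternative chosen after seeing the data.

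Genes of the classical list, which likewise chose their cells, varied in how far they set them apart. Ly6c2, a surface protein of inflammatory monocytes and of some T cells, was at 3000 CPM over the 6 WT classical cells and at 535 CPM over the non-classical WT cells. It was at 974 and 189 CPM in KO-labelled cells. Vcan, which encodes the matrix proteoglycan versican, was at 518 CPM in WT and 112 CPM in KO-labelled classical cells. Fn1, which encodes fibronectin, was at 410 and 824 CPM. F10, also of this list, was at 151 CPM in WT classical and 77.7 CPM in WT non-classical cells. In the KO-labelled library it went the other way, with 0 UMIs in the classical cells, which allows up to 112 CPM. There it was at 189 CPM in the non-classical cells, from 7 UMIs in 3 cells. F13a1, a coagulation factor subunit of the same list, was at 432 CPM in WT classical and 0 in WT interstitial cells, but at 562 CPM in KO-labelled classical and 674 CPM in KO-labelled interstitial cells, where 9 of 14 cells held it. These cells also held the most Lyz2 in both libraries, 21478 CPM in WT and 24381 CPM among KO-labelled cells, against 8134 and 4188 CPM in the non-classical cells. Lyz2 was among the selecting genes, but its level did not enter the lists.

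The interstitial list, which chose its cells in the same way, holds C1qc, a neighbour of the selecting genes C1qa and C1qb. C1qc was at 2174 CPM over the 6 WT and at 1280 CPM over the 14 KO-labelled cells of this kind, and had 0 UMIs in the non-classical cells of both libraries. Pf4, the chemokine platelet factor 4, was at 328 and 387 CPM and had 0 UMIs in monocyte-like cells. Ms4a7, a membrane protein of macrophages, was at 246 and 135 CPM. Mrc1, the mannose receptor, was at 410 and 337 CPM. Folr2 and Lyve1, which mark macrophages along vessels, had 0 UMIs in WT myeloid cells, and 5 and 3 UMIs in the KO-labelled interstitial macrophage-like ones. Apoe, the lipid carrier, was read in all 3 kinds, at 1105 to 2543 CPM in WT and 1573 to 5457 CPM in KO-labelled cells.

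The cells were also split by C1q alone, which is not independent of the lists. C1qa and C1qb are selecting genes, and their neighbour C1qc and Pf4 belong to the interstitial list. All 6 WT and all 14 KO-labelled interstitial macrophage-like cells fell on the C1q side. Cells without C1q had to reach the limit in Lyz2, Cst3 and Csf1r. At least 2 UMIs of C1qa or C1qb were found in 9 WT and 17 KO-labelled cells. All 58 WT and all 77 KO-labelled C1qc UMIs lay in these cells, as did all 8 and 23 UMIs of Pf4. Treml4 had 45 and 7 UMIs in the cells without C1q and 0 in those with C1q. Cd63, a lysosomal membrane protein, was at 556 CPM in WT C1q cells and 12.8 CPM in the others, and at 277 and 80.8 CPM in KO-labelled cells. Cxcl2, a neutrophil-attracting chemokine, had 162 of its 185 WT UMIs and 225 of its 227 KO-labelled UMIs in C1q cells. The cells with C1q had a median of 2485 UMIs in the KO-labelled library, against 6606 in those without.

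The single alveolar macrophage-like cell carried 7 of the 8 genes of its list. It held 124 of the 190 Chil3 UMIs of the KO-labelled myeloid cells, all 12 of Fabp1, all 11 of Marco and all 14 of Car4, and no Siglecf. Chil3 encodes a chitinase-like protein and Marco a scavenger receptor, both of alveolar macrophages. The cell also held 45 of the 56 UMIs of Fabp5, which encodes a fatty acid-binding protein, and had no C1qa, C1qb or T cell UMI. In WT, Chil3 and Ear2 were the only genes of the alveolar list with a UMI. The single cDC2-like cell was near the limit, with 2 UMIs of Cd209a, 1 of Mgl2 and 6 of Ccl17, and it carried 4 T cell UMIs.

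The UMIs of all myeloid cells were next summed and compared with all other cells of the same library, as log2 ratios of CPM. At least 4-fold higher were 424 of 10115 genes in WT (4.19%) and 379 of 11575 in the KO-labelled library (3.27%). At least 4-fold lower were 332 (3.28%) and 206 (1.78%). Of the higher genes 236 were shared, or 55.7% of the WT and 62.3% of the KO-labelled ones, and 34 lower genes were shared. These counts leave out the 5 selecting genes. The same cells, not replicates, stand behind every gene, and genes that vary with the selecting genes were favoured by the choice of cells.

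The genes named for the highest ratios in both libraries, among those read in at least 50% of the cells of each, were mostly genes of the myeloid lineage. Apoe (chromosome 7, 19696109 to 19699188) was at 1463 CPM over the WT myeloid and 9.13 CPM over the other WT cells, a log2 ratio of 7.32 (6.96 to 7.70). In the KO-labelled library it was at 3152 and 2.64 CPM, a log2 ratio of 10.22 (9.85 to 10.61). It was read in 30 of 33 and 27 of 28 cells, with medians of 6 and 10 UMIs. Spi1, which encodes PU.1, was at ratios of 6.67 and 7.82. Spi1 was read in 31 WT cells but in 16 KO-labelled ones. Both genes thus stood far above the other cells in each library.

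The other genes named by size serve defence. Cd14, a receptor for bacterial lipopolysaccharide, was at 675 CPM in WT and 627 CPM in KO-labelled myeloid cells, with ratios of 6.75 and 8.85. Ccl6, a chemokine, was at ratios of 6.65 and 9.40, with 63 of its 139 KO-labelled UMIs in 1 cell. Alox5ap, the partner of 5-lipoxygenase in leukotriene synthesis, was at 6.4 and 9.3, and Pld4, a nuclease of endolysosomes, at 6.39 and 7.05. Ifitm2, an antiviral membrane protein, was at 6.85 and 8.47. Lst1 was at 6.58 and 7.18, and Ifi207, of the interferon-inducible p200 family, at 6.58 and 11.41. In each of these the ratio was higher in the KO-labelled library, where the other cells held less of the transcript. Across the alternatives computed, no named ratio fell below 2.67 in WT or 4.99 in the KO-labelled library.

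**Figure D4:**
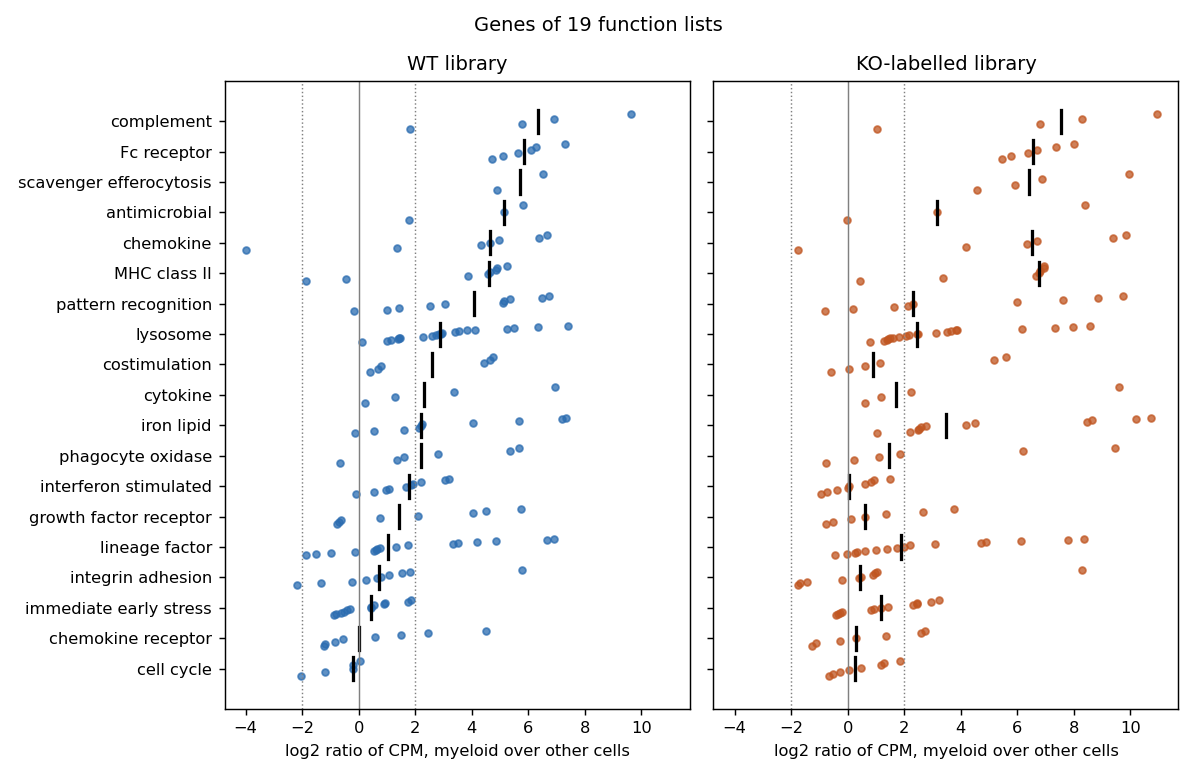
Log2 ratio of CPM, myeloid over other cells of the same library, for the genes of 19 function lists; each point is 1 gene with at least 30 UMIs in all, black bars are list medians, dotted lines mark 4-fold, and C1qc in WT is a lower bound. The MHC class II medians were 4.61 (WT) and 6.78 (KO-labelled), and the cell cycle medians were -0.22 and 0.25.

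Genes of antigen presentation and phagocytosis were high in both libraries. The median over all genes with a ratio was -0.16 in WT and -0.11 among KO-labelled cells. Of the 10 MHC class II genes, which load peptides for CD4 T cells, 6 were at least 4-fold higher in each library, with medians of 4.61 and 6.78. H2-Aa was at 2704 CPM in WT and 2073 CPM in KO-labelled myeloid cells, with ratios of 4.88 and 6.95, and was read in 14 of 33 and 17 of 28 cells. Cd74, the invariant chain, was at 10471 and 9684 CPM and was read in 28 and 26 cells. H2-Oa and H2-Ob, which are typical of B cells, were not past 4-fold. Among the 3 larger kinds H2-Aa was highest in the interstitial macrophage-like cells, at 4553 CPM in WT and 2846 CPM in KO-labelled cells, and lowest in the non-classical ones, at 1839 and 108 CPM.

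All 6 Fc receptor genes with a ratio were at least 4-fold higher in each library, 5 of them in both, with medians of 5.86 and 6.55. Fcer1g and Tyrobp, adaptor chains that signal for Fc and other activating receptors, were read in all 33 WT and in 27 of 28 KO-labelled cells each. Fcgr4, a receptor for IgG, was at 181 and 297 CPM in the non-classical cells and had 0 UMIs in the interstitial ones. Of the 20 lysosome genes 14 were higher in WT and 13 among KO-labelled cells, 13 of them in both. Ctsb and Ctss, cysteine proteases, stood at ratios of 3.83 and 4.12 in WT and 3.50 and 3.86 in KO-labelled cells. Ctsd, an aspartic protease, was at 0.11 (-0.33 to 0.51) in WT and 1.52 (1.22 to 1.8) in KO-labelled cells and passed 4-fold in neither.

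Complement genes were few but high. C1qc was at 274 CPM in WT myeloid cells against 0 UMIs in the other WT cells, a log2 ratio of at least 9.64 with the floor of 3 UMIs. Its KO-labelled level was 464 CPM, with a ratio of 10.96. C1qc shares its locus with 2 selecting genes. C5ar1, the receptor for the complement fragment C5a, was at 123 and 127 CPM, and Itgam, a chain of complement receptor 3, was at 198 and 133 CPM. Of the 14 genes of the list, 4 had enough UMIs for a ratio in each library, and 3 of these were at least 4-fold higher in each, 2 of them in both.

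The oxidase of phagocytes was unevenly raised. Cybb, its catalytic subunit, was at ratios of 5.67 and 9.45. Cyba, the partner of Cybb, was at 1.36 and 1.11, and Rac2, which T cells also use, at -0.67 and -0.78. So 3 of the 6 genes passed 4-fold in WT and 2 among KO-labelled cells. Of the 10 pattern recognition genes with a ratio in WT, 7 were past 4-fold. Tlr2, a receptor for bacterial lipoproteins, was at 5.37 and 6, and Nlrp3, the sensor of an inflammasome, at 5.10 and 7.62. Mincle, encoded by Clec4e, was at 6.50 and 9.76, whereas the adaptor Myd88 was at 1 and 0.21.

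Few cytokine genes were deep enough for a ratio. Il1b was at 1571 CPM in WT and 976 CPM in KO-labelled myeloid cells, with ratios of 6.95 (6.64 to 7.28) and 9.62 (9.06 to 10.21). It was read in 27 of 33 WT cells but in 10 of 28 KO-labelled cells. In non-classical cells it stood at 2349 and 2513 CPM and in interstitial ones at 287 and 842 CPM, where it lay in 2 of 6 and 2 of 14 cells. Il15, which supports lymphocytes, had 8 and 2 UMIs. Tnf was at 0.21 (-0.71 to 0.99) and 0.60 (-0.72 to 1.65). Tgfb1 was at 1.28 and 1.18. Only 4 of the 16 cytokine genes had enough UMIs for a ratio in each library, so that the others could not be compared at this depth.

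Chemokines varied with the kind of cell. Cxcl2 was at 6645 CPM in WT and 2964 CPM in KO-labelled interstitial macrophage-like cells and at 8.64 and 54.0 CPM in the non-classical ones. Ccl4 was at 1354 and 202 CPM in interstitial cells, from 2 of 6 and 2 of 14 cells, and Cxcl2 was held by 3 of 6 and 8 of 14. Ccl6 and Ccl9 were higher in classical cells, at 1533 and 691 CPM in WT and at 712 and 300 CPM in the KO-labelled library. Of the 139 Ccl6 UMIs of the KO-labelled myeloid cells, 63 lay in 1 cell outside these kinds and 19 in the classical cells. Cxcl1 had 30 UMIs in KO-labelled myeloid cells, all in 1 cell, and 2 in WT. Cxcl10 was lower in the myeloid cells than in the others, at ratios of -4.00 (-9.31 to -1.52) and -1.77 (-4.05 to -0.22), with 1 and 3 UMIs.

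Genes of iron and lipid handling were high, 7 of 10 with a ratio in WT and 11 of 12 in the KO-labelled library. Hmox1, which breaks down heme, was at 977 CPM in WT and 1687 CPM in KO-labelled cells, with ratios of 5.68 and 8.67. Slc11a1, a metal transporter of phagosomes, was at 7.20 and 8.48. Fth1, the heavy chain of ferritin, was also abundant in the other cells and was at 0.53 and 1.05. Lpl, lipoprotein lipase, was at 61.3 CPM in WT and 199 CPM in KO-labelled cells, and 15 of its 33 KO-labelled UMIs lay in the alveolar macrophage-like cell.

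Lineage factors and growth factor receptors were more mixed, with 6 of 16 and 4 of 8 genes past 4-fold in WT and 8 of 16 and 2 of 7 in the KO-labelled library. Zeb2 was at 4.19 and 4.91, and Irf5 at 3.50 and 4.72. Nr4a1 was at 0.65 and 0.61, Runx1 at 0.55 and 0.26 and Id2 at -0.98 and -0.04. Csf2ra and Csf2rb, chains of the receptor for GM-CSF, were at 4.49 and 5.74 in WT. Ifngr1, a chain of the interferon-γ receptor, was below the other cells at -0.75 and -0.77, and Tgfbr2 at -0.69 and -0.50. None of these last values reached 4-fold.

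Stress and interferon genes were given as a check of handling. Of 13 immediate-early and heat-shock genes 0 passed 4-fold in WT and 5 among KO-labelled cells, with medians of 0.44 and 1.20. Hspa1a, a heat-shock chaperone, was at 8327 CPM in WT and 3419 CPM in KO-labelled interstitial cells, and at 34.5 and 0 CPM in the non-classical ones. Atf3, a stress-induced factor, was at 4881 and 1112 CPM in interstitial cells and at 121 and 162 CPM in non-classical ones. In the KO-labelled classical cells both genes were high as well, Hspa1a at 5618 CPM and Atf3 at 1798 CPM, against 151 and 64.8 CPM in the WT ones. High stress transcripts thus went with the interstitial list in WT and with the interstitial and classical lists in the KO-labelled library, and their part in the levels of Cxcl2, Ccl4 and other genes of these cells was not tested. Of the interferon genes 3 passed 4-fold in WT and 0 among KO-labelled cells. Cell cycle genes had 0 past 4-fold higher in either library.

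Last, the myeloid cells of the KO-labelled library were compared with those of WT. Of 2170 genes 9 were at least 4-fold higher (0.415%) and 19 at least 4-fold lower (0.876%), and the median log2 ratio over all of them was -0.06. Of the 19 function lists, those of chemokines and of iron and lipid genes each held 1 higher gene, Cxcl1 and Fabp5, and 0 genes of any function list were lower. The kinds of cells differed between the libraries, as given above, and these counts compare sums over different mixtures.

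**Figure D5:**
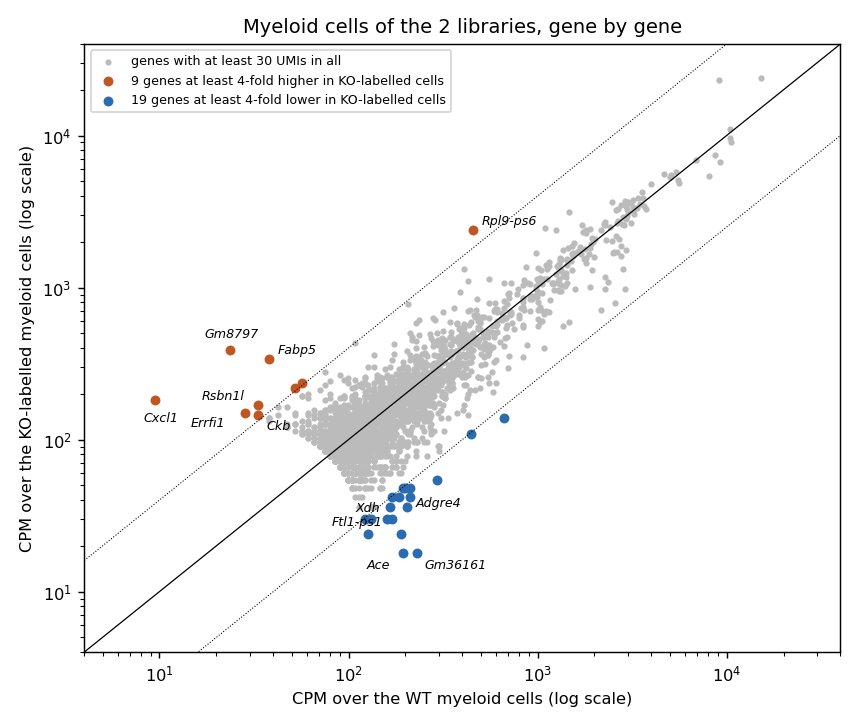
CPM of each gene with at least 30 UMIs in all over the KO-labelled against the WT myeloid cells (both axes log scale, values under 4 CPM drawn at 4); the solid line marks equal levels, dotted lines 4-fold, and colours the 9 genes higher and 19 lower. Most genes lie between the dotted lines.

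The lower genes included 3 of the non-classical list and Hp of the classical list. Ace (chromosome 11, 105967945 to 105989964) had 41 UMIs in 18 WT cells and 3 UMIs in 3 KO-labelled cells, a log2 ratio of -3.42 (-5.76 to -1.77). Adgre4 had 43 and 6 UMIs, a ratio of -2.49 (-4.01 to -1.25), and Treml4 45 and 7, a ratio of -2.33 (-3.73 to -1.17). Within the monocyte-like cells alone the ratio of Ace was -2.24 and that of Adgre4 -1.49, so that Adgre4 was no longer past 4-fold. Both genes belong to a list that assigned these cells. The mixture also still differed, with 18 non-classical and 6 classical cells in WT and 5 and 3 in the KO-labelled library. Xdh, xanthine dehydrogenase, had 36 UMIs in 16 WT cells and 5 in 3 KO-labelled cells, a ratio of -2.50 (-4.20 to -1.14), and -1.74 within the monocyte-like cells. The long non-coding RNA Gm36161 on chromosome 13 was at 231 CPM in WT and 18.1 CPM in KO-labelled cells, a ratio of -3.68 (-6 to -2.05). Hp and Napsa were lower as well, at -2.14 and -2.03.

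Some of the differences were also present in the other cells of the libraries. Gm8797 had 5 UMIs in WT and 64 in KO-labelled myeloid cells, a ratio of 4.03 (2.73 to 5.70), and its ratio over the other cells was 3.1 (2.95 to 3.25). Rpl9-ps6 had 96 and 397 UMIs, with a ratio of 2.40 (2.08 to 2.74) in the myeloid and 2.46 (2.42 to 2.50) in the other cells. Ftl1-ps1 was at -2.97 (-4.91 to -1.50) and -3.73 (-4.07 to -3.40). The names of Rpl9-ps6 and Ftl1-ps1 mark copies of Rpl9 and Ftl1, so that reads may be shared with near-identical genes. Of the 9 higher genes 2 and of the 19 lower genes 3 were also past 4-fold the same way in the other cells. The 3 lower ones were Ftl1-ps1, Hp at -3.14 and Gpr35 at -4.46. Hp belongs to the classical list, and the other WT cells include the 19 cells just outside the limit, 6 of them classical monocyte-like. The part of those cells in the ratios of the other cells was not tested.

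The other higher genes differed in how many cells they rested on. All Cxcl1 UMIs lay in 1 KO-labelled cell, 80.4% of the Fabp5 UMIs in the alveolar macrophage-like cell and 72.0% of the Errfi1 UMIs in 1 cell. Rsbn1l, Ckb, Lmo4 and Thy1 were read in 13, 12, 10 and 12 of the 28 KO-labelled cells. Carriers of T cell transcripts held 24 of 28 Rsbn1l, 23 of 25 Errfi1 and 17 of 24 Ckb UMIs. They held 119307 of all 165939 UMIs of these cells. In cells without T cell transcripts Errfi1 stood at 43.5 CPM in WT and 42.9 CPM in KO-labelled cells. Rsbn1l stood there at 32.7 and 85.8 CPM and Ckb at 54.4 and 150 CPM, each from few UMIs. Errfi1, a feedback inhibitor of the EGF receptor, was at 2.41 (1.09 to 3.99), Rsbn1l at 2.35 (1.12 to 3.79) and Ckb, brain-type creatine kinase, at 2.13 (0.87 to 3.59). Lmo4 and Thy1 were at 2.06 and 2.05, and Thy1 is a T cell gene with 0 UMIs in the WT and 1 UMI in the KO-labelled myeloid cells without T cell transcripts. When each cell was given equal weight, Ckb stood at 1.06, Rsbn1l at 1.62 and Errfi1 at 1.89, all under 4-fold.

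Of the 8 genes of the interstitial list 5 had a ratio between the libraries, and 0 of these passed 4-fold. C1qc was at 0.76, Pf4 at 1.88 (0.66 to 3.25), Mrc1 at 1.77 and Apoe at 1.11 (0.90 to 1.31). Lyz2 and Cst3, selecting genes, were at 9076 against 10551 CPM and 2025 against 2473 CPM. With 1 library each, none of these values has a replicate check.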

How the data were processed

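The deposited values are raw UMI counts, one for each gene in each barcode, produced by the authors with Cell Ranger against mm10 (release 7.0 per the labels, 7.0.0 in the file headers). The labels name a 3′ and the study's methods a 5′ kit, and the methods name an older release. A barcode was kept if it had more than 200 but fewer than 4000 genes and a mitochondrial share below 10%, which gave 2505 of 2520 (WT, 9173997 UMIs in all) and 6634 of 6688 (KO-labelled, 26436826 UMIs). This left more cells than the study states for both libraries. Myeloid cells needed 2 UMIs in each of 3 of the 5 selecting genes. Doublets were not removed. The members and gene lists were chosen with earlier results of these data known.

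UMIs were summed per library over myeloid and over other cells and scaled to CPM. Ratios are log2 with exact conditional 95% intervals, shares have exact Clopper-Pearson intervals, and a count of 0 was set to 3 UMIs for a bound. A ratio needed 30 UMIs over both sums, and a call needed 4-fold and over 3 UMIs on the higher side, the last chosen after seeing the data. No p-value was computed, since each group is 1 library. Named genes were the selecting and T cell genes, the list genes, the 10 genes with the highest smaller ratio over both libraries among those read in at least 50% of the myeloid cells of each, and the 5 highest and 5 lowest KO-labelled over WT ratios among those read in at least 25% of the cells of 1 library. T cell receptor, immunoglobulin, mitochondrial and sex-linked genes were left out of the last parts. Lmo4, Napsa and the T cell state genes were named after their values were seen. Of 32285 gene identifiers 32235 were matched to GENCODE M21, and 2 listed genes were not analysed here. Some genes that the rule names are not reported here. Promoters were taken from RefSeq (GRCm38.p6). Python 3.11.15, numpy 2.4.6, scipy 1.17.1, pandas 2.3.3, scanpy 1.11.5 and matplotlib 3.10.9 were used. The ratios were run on simulated UMI sums that held counting error only. Those sums had no spread between cells, so they cannot show how the intervals hold where a few cells carry most UMIs.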

Additional observations from a re-analysis of the deposited data

Results flagged for a closer look

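Of the 15 WT barcodes left out by the limits on genes and mitochondrial share, 6 met the myeloid rule, all of them with 4070 to 5410 genes and 14842 to 21837 UMIs. This signal lay outside the cells compared in the report. Of the 6 cells 5 carried a T cell UMI, and 3 were classical monocyte-like, 1 non-classical monocyte-like and 1 interstitial macrophage-like. In the KO-labelled library 2 of 54 left-out barcodes met the rule, with 4144 and 4450 genes, and both carried T cell UMIs. Whether these barcodes held more than 1 cell was not tested.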

How the results depend on the processing

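No paired analysis was possible because the 2 groups are single libraries without replicates, and no library could be left out for the same reason. The KO-labelled share of myeloid cells was below the WT share in all 10 settings that gave both, and no named ratio and no list median past 4-fold changed direction under the alternatives run. The cell cycle median of KO-labelled cells, under 4-fold, was 0.25 and became -0.36 without cells carrying T cell UMIs. With 3 UMIs per selecting gene the KO-labelled share was 0.241%, and with 2 genes the WT share was 2.08%. With 4 genes the shares were 0.279% (WT) and 0.166% (KO-labelled), non-classical cells made up 14.3% and 0%, interstitial ones 57.1% and 90.9% and KO-labelled classical ones 0%, and 272 and 136 genes were higher and lower in WT, 227 and 106 among KO-labelled cells and 6 lower between the libraries. The setting with 4 genes requires C1qa or C1qb and so favours the interstitial list. Cells without T cell UMIs made up 0.798% and 0.226%. After thinning to 2000 UMIs before the rule the shares were 0.753% and 0.189%, and 12.5% of the WT cells carried T cell UMIs. With 2 UMIs per list gene, non-classical cells made up 30.3% and 3.57%, KO-labelled interstitial ones 28.6%, and cells without a list 27.3% and 53.6%. With 10 UMIs over both sums 78 genes were higher and 108 lower between the libraries. With 100 UMIs these were 1 and 2, the genes higher than in other cells 186 and 242, and those of the lists 45 and 51. At 2-fold, 982 and 1578 genes were higher and lower in WT, 817 and 1262 among KO-labelled cells and 92 and 155 between the libraries. With cells weighted equally 619 (WT), 669 (KO-labelled) and 36 (between libraries) genes were lower. Alternatives chosen after seeing the data gave 590 higher KO-labelled genes with no minimum on the higher side, and 19 higher and 12 lower genes between the interstitial macrophage-like cells alone. Fewer cells, UMIs or genes enter several of these settings, and other causes were not tested. Of the 494 list medians computed again 400 stayed within 0.5 of their value on the log2 scale. Of the 254 ratios of named genes over other cells 164 did, and 90 moved further. Of the 110 KO-labelled over WT ratios of named genes 83 did, and 27 moved further. When C1qc was taken out of the complement and interstitial lists, 3 of the 4 medians moved further. The 33 and 28 cells limit every share, and most cytokine and complement genes were too sparse to compare.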
